A study of Mus musculus with 8 samples.

Results

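The vascular endothelial growth factor (VEGF) receptors *Kdr*, *Flt1* and *Flt4*, the neuropilins *Nrp1* and *Nrp2*, and the ligands *Vegfa*, *Vegfb* and *Vegfc* were examined in single endocardium cells of the mouse heart. These 8 genes of the 35560 on the arrays were taken by name, through every non-control probe annotated to them. They had 12 of the 55295 probes analysed, with 1 probe each for *Flt4*, *Nrp1*, *Vegfb* and *Vegfc* and a pair of probes for each of the others.

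RNA was measured on 8 1-colour Agilent arrays, each with material amplified from 1 cell of the heart at embryonic day 8.5 (9 somites). The 4 WT cells were Mesp1+/+, Sox17 flox/flox, and the 4 *Sox17* KO cells were Mesp1Cre/+, Sox17 flox/flox, so that both genotypes carried the floxed alleles and KO cells alone carried the Cre allele in *Mesp1*. Because Mesp1-Cre acts in early mesoderm, deletion was not limited to the endocardium. The embryo that each cell came from is not stated. A genotype was therefore treated as 1 sample, no test was made, and every difference is set against the SD between cells. Cells of 1 embryo cannot be recognised as such, and the place of an array on the slide cannot be told apart from genotype.

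VEGF receptors are receptor tyrosine kinases that span the endothelial cell membrane. KDR (VEGFR2) carries most of the mitogenic and migratory signal of VEGF-A in endothelium, whereas FLT1 (VEGFR1) binds VEGF-A and VEGF-B tightly, signals weakly and can hold ligand away from KDR. FLT4 (VEGFR3) is the receptor for VEGF-C and is best known from lymphatic and early venous endothelium. Neuropilins are co-receptors with short cytoplasmic tails that bind VEGF family members as well as class 3 semaphorins. In the developing heart, endocardium and other endothelium express the receptors, and VEGF-A made by neighbouring cells, myocardium among them, acts on them.

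The probes on which the results turn are shown as the deposited files give them, on mm9, 5′ to 3′ in the sense of the transcript. Only the first 30 of 60 bases are printed where the probe may lie in an untranslated region, and no letter is in capitals because no motif was examined. The place of the probes in coding or untranslated sequence was not checked against an annotation. Printing the second *Kdr* probe and the *Nrp1* probe whole therefore does not mark them as coding. The *Kdr* pair is shown because its probes gave different patterns, the *Flt1* pair because only one of them was detected, and *Nrp1*, *Vegfb* and *Vegfc* because they had the largest differences between genotypes.
Kdr, first probe, chr5:76329309-76329368, minus strand: ctactgtatcctttagaattttaacctata
Kdr, second probe, chr5:76330395-76330454, minus strand: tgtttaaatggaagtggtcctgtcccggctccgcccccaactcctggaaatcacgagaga
Flt1, first probe, chr5:148373791-148373850, minus strand: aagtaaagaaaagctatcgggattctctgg
Flt1, second probe, chr5:148465976-148466035, minus strand: tccctatcccaactacacattcaatcttct
Nrp1, chr8:131026650-131026709, plus strand: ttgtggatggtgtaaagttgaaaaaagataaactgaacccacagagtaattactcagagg
Vegfb, chr19:7057245-7057304, minus strand: tgcttttatggccctgcttcacagggagaa
Vegfc, chr8:55271533-55271592, plus strand: tctgtgtttattgaaccatgtggattactg

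The second *Kdr* probe lay 1086 bases upstream of the first on the same transcript record and had a GC content of 55.0% against 35.0%. The second *Flt1* probe lay 92185 bases upstream of the first on the genome, which is not a distance along a transcript, and was designed on another transcript record. cDNA had been primed at the poly(A) tail. Among transcripts whose most downstream probe was detected in all 8 cells, an upstream probe was also detected in all 8 cells for 56.7% of 374 probes within 500 bases, for 29.3% of 263 probes at over 500 to 1500 bases, and for 15.9% of 157 probes farther away. These distances are along the transcript. By this choice of transcripts upstream probes could not be detected more often, so that only the fall with distance is described. Its cause was not tested. The brightest probe stands for a gene below. Otherwise signals of different probes of the 8 genes are not set against each other, since probes differ in how strongly they bind. The marker sums below do add signals of different probes, so that a strongly binding probe weighs more in them.

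Detected means here that the scanner software called the probe well above background. Signals were scaled between arrays, and values under 50 were set to 50, which is 5.64 on the log2 scale and is called the floor. A probe can be detected and still lie at the floor. Between 11370 and 18175 probes were detected per cell, with overlapping ranges in the genotypes. Both *Sox17* probes were detected in no cell of either genotype, with scaled signals of 1.09 to 6.18, so that the arrays do not show the deletion. Of 9 endocardial or endothelial marker genes other than *Kdr*, 6 to 9 were detected in each WT cell and 5 to 8 in each KO cell, and *Cdh5*, which encodes VE-cadherin, was detected in all 8. Summed scaled signals of these markers ran from 8409 to 25855 in WT and from 3490 to 38853 in KO cells.

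Cardiomyocyte markers were also present. Their summed signal over 9 genes ran from 318 to 34056 in WT and from 1001 to 48719 in KO cells, with 3 to 7 genes detected per cell. It was highest in KO cell 1 (48719), WT cell 2 (34056) and KO cell 4 (28948) and at most 8591 in the other 5 cells, while *Tbx5* was at the floor in all 8. In KO cell 1 it came mostly from *Actc1* (15.32) and *Myl4* (12.84), with *Tnnt2*, *Myh6*, *Actn2* and *Nkx2-5* at the floor. In WT cell 2 it came mostly from *Myl4* (14.03), *Myh7* (13.24) and *Actc1* (12.80). In KO cell 4 it came mostly from *Actc1* (13.55), *Tnnt2* (13.26) and *Myl7* (12.64). The other 5 cells were not free of these markers. *Tnnt2* was at 11.37 in WT cell 3, and *Actc1* was at 12.06 in WT cell 4 and 12.70 in KO cell 3. *Myl7* was at 11.84 in WT cell 4. In WT cell 1 and KO cell 2 *Actc1* was lower, at 6.38 and 9.17. By the number of cardiomyocyte markers detected, WT cell 3 (6) and WT cell 4 (5) exceeded KO cell 1 (4). The *Actc1* mean was 6.38-fold higher in KO cells (SD between cells 2.79). Endothelial markers were detected in the 3 cells with the highest sums too, with 7 of 9 for WT cell 2 and KO cell 4 and 5 of 9 for KO cell 1. *Cdh5* was at 12.29, 9.50 and 12.58 in WT cell 2, KO cell 1 and KO cell 4. In the same order *Tie1* was at 10.79, 11.02 and 10.30, and *Pecam1* at the floor, 5.66 and 11.54. The other markers were lower or at the floor in some of these cells. *Sox7* had 9.90, the floor and 11.61, *Nfatc1* 8.44, the floor and 6.35, and *Sox18* the floor, 7.95 and 6.49. Among these 3 cells *Tek* exceeded the floor only in WT cell 2 (8.06), *Emcn* only in KO cell 1 (8.52) and *Npr3* in none. Over all 8 cells the *Emcn* mean was 16.8-fold higher in KO (SD between cells 2.58). Smooth muscle markers (3 genes) summed to 14376 in WT cell 2 and 7724 in KO cell 4 and to at most 270 in the others. Blood markers (5 genes) summed to at most 54.1 and endoderm markers (5 genes) to at most 22.1 in any cell. Differences are therefore also given without WT cell 2, KO cell 1 and KO cell 4, a choice made after these values were seen, which leaves 3 WT and 2 KO cells.

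*Kdr*, the main signalling receptor for VEGF-A, was detected in every cell and was the only one of the 8 genes of which this was true. *Flt1* and *Vegfc* were each detected in 7 cells, *Vegfb* in 5, *Flt4* and *Nrp1* in 4, and *Nrp2* and *Vegfa* in 1. Detection in all 8 cells was found for 31.9% of the 19198 genes detected in at least 1 cell. The genes were not spread evenly over cells. WT cells 1 to 4 had 4, 5, 4 and 7 of the 8 detected, and KO cells 1 to 4 had 2, 3, 7 and 5. WT cell 4 and KO cell 3 thus had nearly the whole set detected, whereas KO cell 1 had *Kdr* and *Vegfc* alone. Fewer genes were above the floor in some cells, with 3, 5, 3 and 7 in WT cells and 2, 3, 5 and 4 in KO cells. By the less strict flag of the scanner software, for signal positive and significant, the counts of detected genes were more even. They were 5, 6, 6 and 7 in WT and 5, 5, 7 and 6 in KO cells. WT cell 4 and KO cell 3 were also the cells with the most probes detected over the whole array, 18175 and 16853, and the part of this in the counts was not tested.

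**Figure D1:**
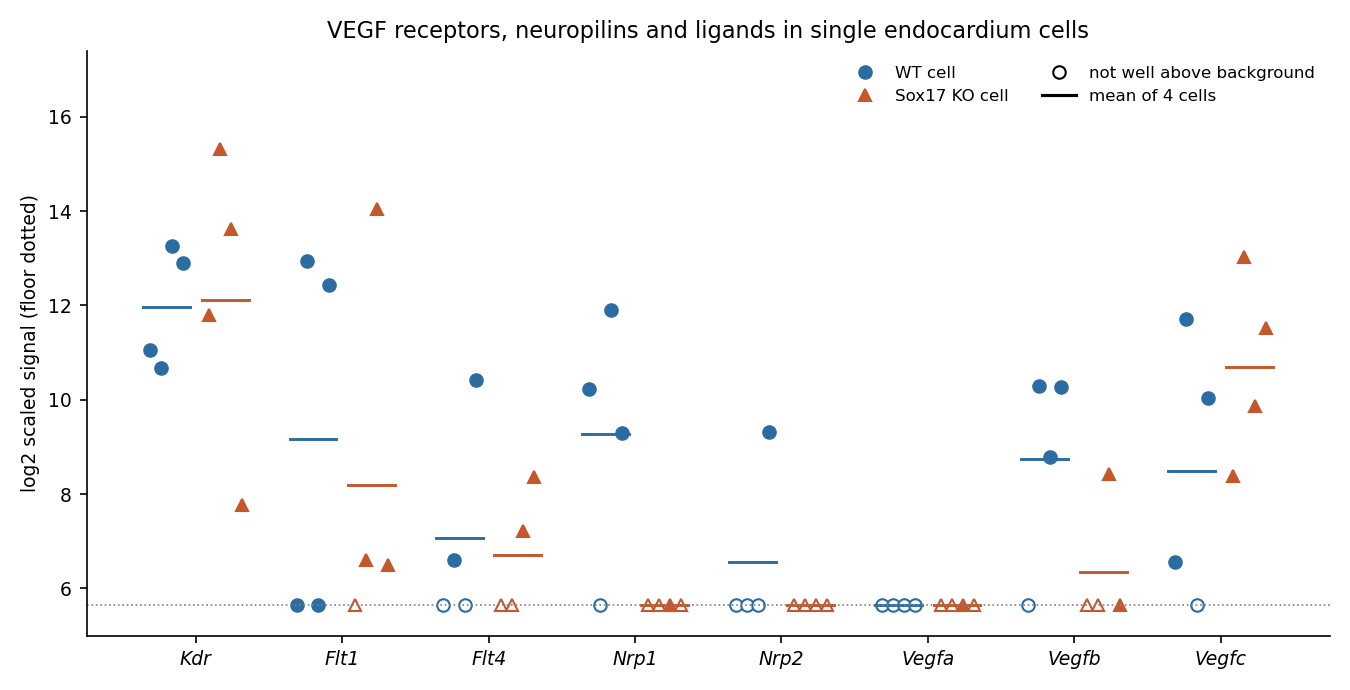
Log2 scaled signal of the brightest probe of each gene in 4 WT cells (circles) and 4 *Sox17* KO cells (triangles), with open symbols where the probe was not well above background, lines at the mean of 4 cells and a dotted line at the floor of 5.64. *Kdr* lies above the floor in all 8 cells, *Nrp1* lies above it in 3 WT cells and no KO cell, and *Vegfc* in 3 WT and all 4 KO cells.

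**Figure D2:**
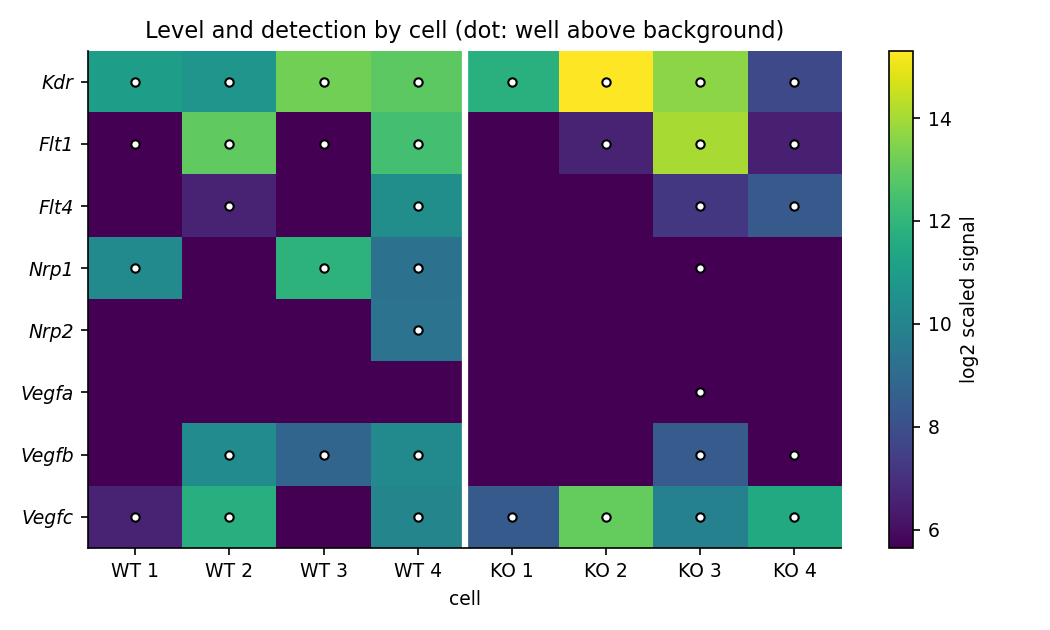
The same values by cell, with colour for the log2 scaled signal and a dot where the probe was well above background. Colours can be compared along a row but not between rows. WT cell 4 and KO cell 3 carry 7 dots each and KO cell 1 carries 2.

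*Kdr* differed more among cells of 1 genotype than between genotypes. WT cells 1 to 4 had log2 signals of 11.05, 10.67, 13.26 and 12.89, and KO cells 1 to 4 had 11.80, 15.31, 13.63 and 7.76. The highest and the lowest cell were both KO cells, and the 4 WT cells fell between them. The mean was 11.97 ± 1.30 (SD, n = 4) in WT and 12.12 ± 3.24 (SD, n = 4) in KO cells, a difference of 0.16 against an SD between cells of 2.47. It was 1.61 without KO cell 4 and -0.91 without KO cell 2. The sign of so small a difference turned with the scaling, to -0.23 with the 75th percentile and -0.31 with quantile normalization. The difference was 2.07 without the 3 cells with the most cardiomyocyte marker signal, KO cell 4, the lowest, being among those left out.

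Spots of *Kdr* agreed far more closely than cells. Its first probe was printed 10 times on each array, of which 8 to 10 spots were usable and all usable spots were detected. The coefficient of variation over spots of 1 array was 2.67% to 8.18%, and the highest spot exceeded the lowest by a factor of 1.07 to 1.27, against a factor of 187 between KO cell 2 and KO cell 4. This shows how well an array measured the amplified material and not how faithfully the amplification kept the RNA of a cell.

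The second *Kdr* probe did not follow the first. Its log2 signal was 11.63, 9.62, 9.86 and 9.41 in WT and 10.99, 10.88, 9.36 and 9.58 in KO cells, detected in all 8. The highest cell was WT cell 1, one of the 3 lowest cells by the first probe, and the genotypes overlapped, with a difference of 0.08 (SD between cells 0.94), or -0.17 without the 3 cells left out above. Pearson's r between the probes over the 8 cells was 0.12. Before any scaling the signal of the second probe ran from 702.5 to 1342 over the 8 arrays, a 1.91-fold range, while that of the first ran over 110-fold. Of the 7570 probes detected in all 8 cells, 293 (3.87%) had a range as narrow as that of the second probe, and the median range was 5.62-fold. A range as wide as that of the first probe was found for 16.3%. The cause of the disagreement was not tested, and the *Kdr* values rest on the first probe.

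**Figure D3:**
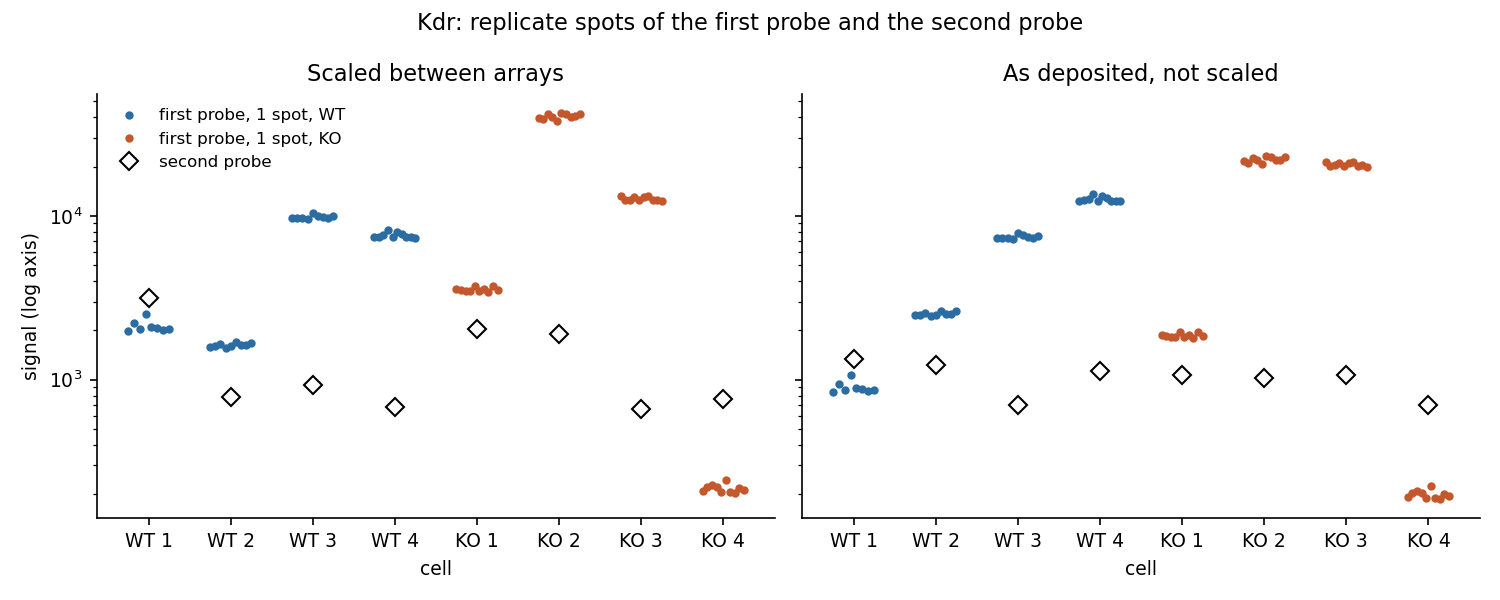
*Kdr* signal in each cell on a log axis, after scaling between arrays (left) and as deposited (right), with a dot for each usable spot of the first probe (blue WT, orange KO) and a diamond for the second probe. Spots of the first probe lie close together within an array and far apart between arrays, while the unscaled second probe stays between 702.5 and 1342.

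*Flt1*, the high-affinity receptor that can act as a sink for ligand, was either near the floor or high. Among WT cells, cells 1 and 3 were at the floor and cells 2 and 4 had log2 signals of 12.94 and 12.43. KO cell 1 was at the floor, and KO cells 2, 3 and 4 had 6.60, 14.05 and 6.49. WT cells 2 and 4 and KO cell 3 were high and no cell lay between 6.60 and 12.43, so that the genotypes overlapped fully. The probe was detected in all 4 WT cells, also in those at the floor, and in 3 KO cells. The mean was 9.16 ± 4.07 (SD, n = 4) in WT and 8.20 ± 3.92 (SD, n = 4) in KO cells, a difference of -0.97 with an SD between cells of 4.00. KO cell 3 decided its size, with -2.92 without that cell, and the sign turned without WT cell 2 (0.29) or WT cell 4 (0.12). Leaving out the 3 cells with the most cardiomyocyte marker signal gave 2.42. The 3 cells high in *Flt1* were those with the most probes detected over the array (16429, 18175 and 16853), and the part of this in the result was not tested. The second *Flt1* probe was at the floor and detected in none of the 8 cells.

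*Flt4*, the receptor for VEGF-C, was above the floor in 2 cells of each genotype. Its log2 signal was 6.60 in WT cell 2 and 10.42 in WT cell 4, and 7.22 in KO cell 3 and 8.35 in KO cell 4. The other 4 cells were at the floor and not detected. The means were 7.08 ± 2.27 (SD, n = 4) in WT and 6.72 ± 1.32 (SD, n = 4) in KO cells, and the difference of -0.36 was small beside the SD between cells of 1.86. It was 0.75 without WT cell 4, -0.91 without KO cell 4, and -0.80 without the 3 cells with the most cardiomyocyte marker signal. All 4 cells with *Flt4* belonged to those with the most probes detected, from 16299 upward. Over the 8 cells r between its log2 signal and that number was 0.81. For the other genes this r was 0.76 (*Flt1*), 0.69 (*Vegfb*), 0.55 (*Nrp2*), 0.36 (*Vegfc*), -0.17 (*Kdr*) and -0.24 (*Nrp1*). *Vegfa*, at the floor in all cells, has no such value.

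The co-receptor *Nrp1* had the largest difference between genotypes of the 8 genes. WT cells 1, 3 and 4 had log2 signals of 10.24, 11.89 and 9.30, whereas WT cell 2 and all 4 KO cells were at the floor. Of the WT cells, 3 thus stood well above every KO cell, while WT cell 2, with a scaled signal of 2.91, lay among them, so that the genotypes met at the floor. KO cell 3 was the only KO cell in which the probe was detected, at a scaled signal of 19.3, and the other KO cells had 3.06, 11.4 and 4.15. The mean was 9.27 ± 2.64 (SD, n = 4) in WT cells, and KO was lower by 12.3-fold, a log2 difference of -3.63 with an SD between cells of 1.87.

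Since every KO cell was at the floor, the floor sets the size of the *Nrp1* difference. It was -5.08 with a floor of 10 and -2.13 with a floor of 200, the latter under 5-fold. It was -4.83 without WT cell 2 and -2.75 without WT cell 3, and 5-fold or more with any 1 cell left out. It was also -4.83 without the 3 cells with the most cardiomyocyte marker signal, and the 3 remaining WT cells, at 9.30 to 11.89, did not overlap with the 2 remaining KO cells at the floor. WT cell 2, the WT cell without *Nrp1*, was among the 3 left out.

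*Nrp2*, the other neuropilin, was measured in WT cell 4 alone, at 9.31. The other 3 WT cells and all 4 KO cells were at the floor and not detected. WT cell 4 was also the cell with the most probes detected over the array (18175), and the part of this was not tested. With WT cell 4 as the only cell above the floor, the log2 difference was -0.92 (SD between cells 1.30), or 1.89-fold lower in KO cells. Its size depended on floor and scaling, with -1.50 at a floor of 10, -0.42 at a floor of 200 and -0.43 with quantile normalization. The difference was 0.00 without WT cell 4 and -1.22 without the 3 cells with the most cardiomyocyte marker signal. The second *Nrp2* probe was detected in no cell. Both neuropilins together were therefore above the floor in WT cell 4 only.

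Of the ligands, *Vegfa*, the main ligand of KDR and FLT1, was at the floor in all 8 cells by both probes. The first probe was detected in KO cell 3 alone, at a scaled signal of 27.1 against 1.19 to 4.17 in the other 7 cells. The second, 7989 bases upstream on the genome, was detected in no cell. No fold can be given, and levels under the floor were not resolved.

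*Vegfb*, a ligand of FLT1 and NRP1, was higher in the mean of the WT cells. WT cell 1 was at the floor, and WT cells 2, 3 and 4 had log2 signals of 10.29, 8.78 and 10.28. Among KO cells only cell 3 was above the floor, at 8.43. In all, 3 WT cells were above every KO cell, and WT cell 1 was among the KO cells at the floor. The mean was 8.75 ± 2.19 (SD, n = 4) in WT and 6.34 ± 1.39 (SD, n = 4) in KO cells, a difference of -2.41 or 5.31-fold lower in KO, with an SD between cells of 1.83. The difference lay close to 5-fold. It was under 5-fold with the floor set before scaling (-2.23), quantile normalization (-1.66), normexp (-2.14) and a floor of 200 (-1.41). With 1 cell left out it was -3.44 without WT cell 1 and -3.11 without KO cell 3, and fell short of 5-fold without WT cell 2 (-1.89), without WT cell 4 (-1.90) and without KO cell 1, 2 or 4 (-2.18 each). Without the 3 cells with the most cardiomyocyte marker signal it was -1.20.

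*Vegfc*, a ligand of FLT4, had its higher mean in KO cells. WT cell 3 was at the floor, WT cells 1, 2 and 4 had log2 signals of 6.56, 11.72 and 10.05, and the signals were 8.38, 13.03, 9.87 and 11.52 in KO cells 1 to 4. Every KO cell was detected and above WT cells 1 and 3, but WT cells 2 and 4 lay inside the KO range. The mean was 8.49 ± 2.87 (SD, n = 4) in WT and 10.70 ± 2.01 (SD, n = 4) in KO cells, a difference of 2.21 (4.62-fold higher in KO) with an SD between cells of 2.48. It was lowest without WT cell 3 (1.26) and highest without WT cell 2 (3.28). With the 3 cells of most cardiomyocyte marker signal left out it was 4.04, with KO cells at 9.87 and 13.03 and WT cells at the floor, 6.56 and 10.05.

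**Figure D4:**
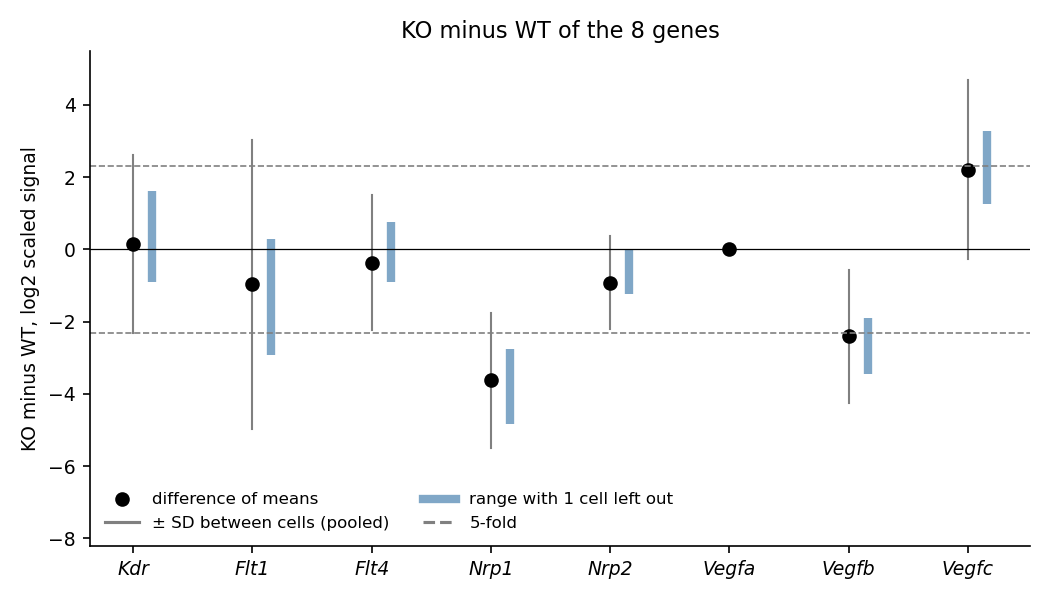
KO minus WT difference of mean log2 scaled signal for each gene (points), with the pooled SD between cells as grey lines, the range over leaving out each cell in turn as blue bars, and dashed lines at 5-fold. *Nrp1* (-3.63) and *Vegfb* (-2.41) lie beyond the lower line and *Vegfc* (2.21) just inside the upper one.

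By the 5-fold criterion of the study, 2 of the 8 genes (*Nrp1* and *Vegfb*) were lower in KO cells and none was higher. Over the 19198 genes detected in at least 1 cell, 657 (3.42%) were lower by that factor and 652 (3.40%) were higher. None of the 8 had all KO cells below all WT cells, which held for 50 genes (0.260%), or all KO cells above all WT cells, which held for 230 (1.20%). The median difference over the 8 genes was -0.64, with 5 negative, 2 positive and 1 of 0. Over all 19198 the median was 0.00, with 6492 negative and 8103 positive. The SD between cells had a median of 1.86 over the 8 genes and 0.81 over all 19198, of which 4603 had a difference of 0. That median was 1.92 over the 9 endocardial or endothelial markers and 1.75 over the 77 detected genes of the pathway lists below. By list it ran from 1.18 (neuropilin partners) to 2.02 (receptor-proximal signalling), so that a wide spread was not particular to the 8 genes. With the floor set before scaling, the order in the study's methods, 1 gene (*Nrp1*) was lower by that factor. In the 5 cells left without the 3 of most cardiomyocyte marker signal, 1 gene (*Nrp1*) was at least 5-fold lower, as were 5.31% of the 19198 genes, and 2 (*Flt1* and *Vegfc*) were at least 5-fold higher, as were 7.43%. All KO cells were then below all WT cells for 1.99% of genes, *Nrp1* among them, and above for 4.66%, *Kdr* among them.

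The genes did not share 1 pattern over cells. As a description over the 8 cells, with no test, r between log2 signals was 0.82 for *Flt4* and *Nrp2*, both highest in WT cell 4, and 0.76 for *Flt1* and *Vegfb*, both high in WT cells 2 and 4 and KO cell 3. WT cell 3 did not match, with *Flt1* at the floor and *Vegfb* at 8.78, above the 8.43 of KO cell 3. For *Nrp1* and *Vegfc* r was -0.79: WT cell 3, the highest in *Nrp1*, was the cell with *Vegfc* at the floor. Within genotypes these r values were 0.85, 0.86 and -0.76. *Nrp2* and *Nrp1* were at the floor in all 4 KO cells, so that the first and the last rest on WT cells alone. For the first, *Nrp2* was above the floor only in WT cell 4. *Kdr* had r of -0.23 to 0.17 with the others. All of these genes but *Kdr* had cells at the floor, *Nrp1* and *Vegfc* in different cells, and array depth differed among cells. The part of floor and depth in these r values was not tested.

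The genes most like each member over the 8 cells were taken from 7975 genes detected in at least 6 cells. For *Nrp1* they were *Coro2b* (r = 0.971), *Jmjd6* (0.966) and *Cdt1* (0.962), the first of which was at 13.17, 12.69 and 11.89 in WT cells 1, 3 and 4 and did not exceed the floor elsewhere. *Flt1* was followed most closely by *Mrpl48* (0.996), *Snf8* (0.991) and *Vill* (0.989). The nearest were *Fbl* (0.952) and *Cct4* (0.941) to *Kdr*, *Cfap20* (0.957), *Trim8* (0.953) and *Hmces* (0.952) to *Flt4*, *Ndufs5* (0.974), *Dusp3* (0.956) and *Dnaja2* (0.955) to *Vegfb*, and *Psmc2* (0.963) to *Vegfc*, leaving out array features without a gene symbol. An r of at least 0.9 was reached by 0.0752% (*Nrp1*) to 0.313% (*Flt1*) of the candidates, and with 8 points such likeness is a description only.

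The wider VEGF pathway was examined through 6 lists of 100 other genes, of which 77 were detected in at least 1 cell. At 5-fold, 3 were higher in KO cells (*Shc1*, *Mapk3* and *Rcan1*) and 2 were lower (*Pdgfrb* and *Mapk14*). These shares of the 77 are near the 3.40% and 3.42% of all genes, so that the genes below are described as values and not as a result about the pathway. The median difference over the 77 was 0.00, the same as over all genes, with 33 positive, 34 negative and 10 of 0. The lists held 5 of 7 VEGF relatives, 10 of 13 semaphorins, plexins and other neuropilin partners, 18 of 20 receptor-proximal signalling genes, 28 of 31 downstream effectors, 7 of 8 genes of the oxygen-dependent control of *Vegfa*, and 9 of 21 genes known to be induced by VEGF as detected genes. Neuropilin partners ranged from -1.55 to 1.68 and the oxygen-dependent genes from -2.28 to 1.74, with none of either list at 5-fold.

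Of the downstream effectors, *Mapk3*, which encodes the kinase ERK1, was higher in KO cells, with 6.14, 9.64, 12.17 and 12.17 in WT and 13.34, 14.89, 13.80 and 11.44 in KO cells. Its difference was 3.34 (SD between cells 2.26) by the brightest probe and 2.95 by the other, and 2.04 without WT cell 1. *Mapk14*, which encodes p38 alpha, a kinase of the VEGF migration response, was 11.41, 10.32, 12.24 and 12.51 in WT cells and at the floor in 3 KO cells, with KO cell 1 at 10.97. That difference was -4.64 (SD between cells 2.01), and the other probe of *Mapk14* was detected in no cell. With any 1 cell left out, *Mapk14* stayed between -5.98 and -4.20. None of the 77 genes had genotypes that did not overlap.

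Like *Mapk3*, the other 3 genes fell short of 5-fold when a particular cell was left out. *Shc1*, an adaptor of receptor tyrosine kinases, differed by 2.57 (SD between cells 2.33) with WT cell 1 at the floor, and by 1.05 without that cell. *Pdgfrb*, a receptor for PDGF, differed by -2.52 (SD 2.25) with all KO cells at the floor, and by -1.16 without WT cell 3 and -2.20 without WT cell 2. *Rcan1*, a calcineurin regulator that VEGF induces through NFAT, was at the floor, 9.20, the floor and 7.56 in WT cells and at the floor, 11.89, 8.52 and 11.94 in KO cells. It was higher in KO by 2.49 (SD 2.46), and by 1.69 without KO cell 2, 1.67 without KO cell 4 and 2.03 without WT cell 1 or WT cell 3. With the 3 cells of most cardiomyocyte marker signal left out, the differences were 4.18 for *Mapk3*, -6.41 for *Mapk14*, 2.67 for *Shc1*, -2.20 for *Pdgfrb* and 3.92 for *Rcan1*.

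**Figure D5:**
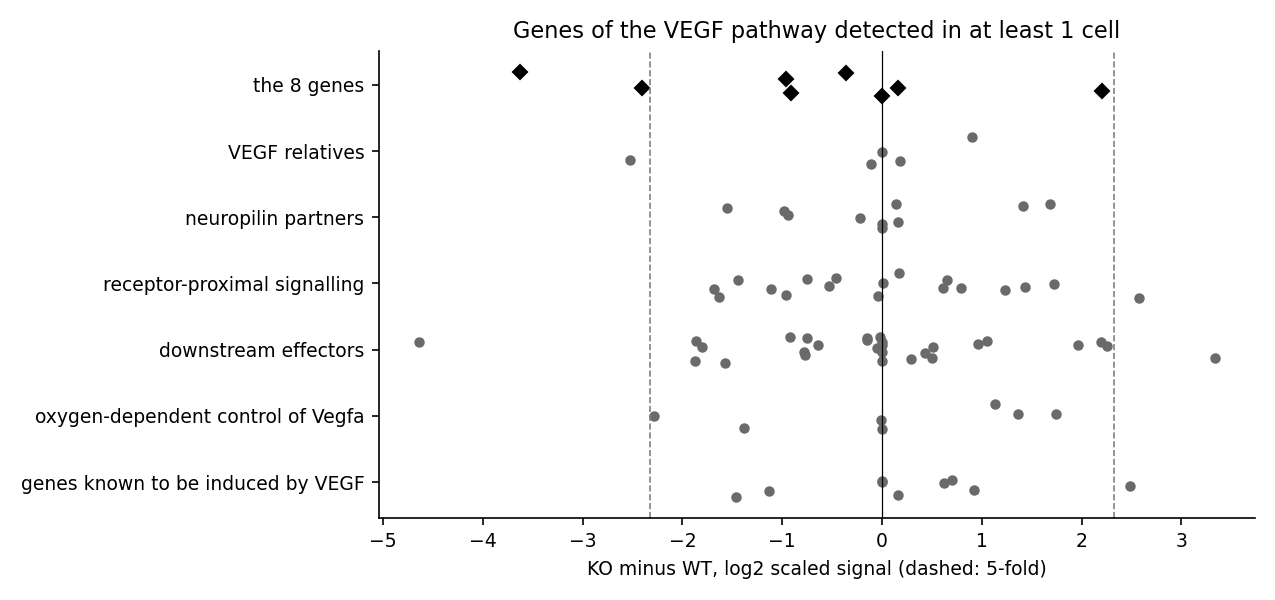
KO minus WT difference of mean log2 scaled signal for the 8 genes (diamonds) and for the 77 pathway genes detected in at least 1 cell, by list (dots, shifted vertically at random for visibility), with dashed lines at 5-fold. Most genes of each list lie on both sides of 0 within 5-fold, and *Mapk14* (-4.64) lies farthest out.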

How the data were processed

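Each of the 8 arrays (design 028005) held amplified, T3-transcribed cDNA of 1 cell. The authors identified the cell type by PCR of marker genes, and scanned all 8 on 1 slide with Agilent Feature Extraction 12.0.2.2. The deposited intensity of each spot is background-subtracted and detrended within its array and is not normalized between arrays. The other deposited columns used are flags for outliers, saturation and signal over background.

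Control spots and outlier spots (4 of the spots of the 8 genes, which have 22 spots per array) were dropped, replicate spots were averaged per probe, and the 55295 of 55681 probes usable on all arrays were analysed. No spot of the 8 genes was saturated. A probe was well above background when over 50% of its spots were. Each array was scaled to its 50th percentile over the 7570 probes called so on all 8, then floored at 50 and put on the log2 scale. This departs from the order in the study's methods, which is an alternative. For 28131 probes names came from a RefSeq table (GRCm38.p6, names only). A gene is its probe with the highest mean. The number of arrays limits the precision.

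A gene of the pathway lists is not reported here and is left out of their counts. The genes, lists and settings were chosen with earlier results of these data known. Named genes are the 8 genes, list genes at least 5-fold apart or not overlapping, and up to 3 most alike genes for each gene detected in at least 4 cells. Settings for the pathway genes, and the leaving out of 3 cells, were added after seeing the data. Scaling, floor and difference were tested on simulated arrays, with shifts on bright probes only. The simulated noise was smaller than the median SD between cells of the 8 genes. Differences set by the floor were therefore not tested in this way. Python 3.11.15, numpy 2.4.6, pandas 2.3.3, scipy 1.17.1, matplotlib 3.10.9, R 4.3.3 and limma 3.58.1 (normexp, offset 50) were used.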

Additional observations from a re-analysis of the deposited data

Results flagged for a closer look

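Of 14 sets of 4 cells with a spread, 3 held a cell far from the rest. The usual chance rate of about 1 in 20 does not hold for values set to a floor, and with 3 of 4 cells at the floor the measure is 1.0 by construction, so that nothing is read from this number. The gap of that cell to its nearest neighbour, as a share of the range of the 4 cells, was 0.886 for *Flt1* in KO cells, where KO cell 3 was at 14.05 and the next at 6.60. It was 1.0 for *Nrp2* in WT cells, where WT cell 4 was at 9.31 and the other 3 at the floor. It was 1.0 for *Vegfb* in KO cells, where KO cell 3 was at 8.43 and the other 3 at the floor.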

How the results depend on the processing

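The number of the 8 genes at least 5-fold lower in KO cells, 2 as reported, was 1 with the floor set before scaling, with quantile normalization and with normexp (*Nrp1* in each), and 0 with a floor of 200 and when probes had to be well above background on every array, which leaves *Kdr* alone. The number at least 5-fold higher, 0 as reported, was 1 with a floor of 10 (*Vegfc*, 2.79). With each cell left out in turn the counts were 1 to 3 lower and 0 to 1 higher, and the median over the genes was -1.03 to 0.06. Without the 3 cells with the most cardiomyocyte marker signal the counts were 1 lower and 2 higher, against 5.31% and 7.43% of all genes. The median of all genes shifted by 0.24 with the floor before scaling and by 0.23 with normexp, and relative to these shifts *Nrp1* was at -3.40 and -3.14 and *Vegfb* at -2.48 and -2.37, both past 5-fold. Of 214 differences for the 8 genes under all alternatives, 9 moved by more than the SD between cells and 205 did not. Most are of single probes, and some average a gene's probes. All 9 were for probes at the floor in all cells, whose SD is 0, so that any movement counted. Under other alternatives these probes could not move and are among the 205. Elsewhere the SD was often wide. *Flt1* counted as not moved (SD 4.00) although it went from -0.97 to 2.42 without the 3 cells with the most cardiomyocyte marker signal. The 205 are therefore not read as a measure of stability. Neither difference of at least 5-fold as reported (*Nrp1* and *Vegfb*) changed sign. Of the 90 differences for pathway genes, 1 moved by more than the SD, *Mapk14* (-2.32), with its probes averaged. With the other detection flag, 5 to 7 of the 8 genes were detected per cell, in place of 2 to 7. No paired analysis was possible because no test was made and cell numbers do not pair cells of the genotypes. Signal over background limits all values at the floor.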
